A study of Mus musculus with 9 samples.

Results

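The genes read here are 56 transporters for amino acids, neurotransmitters and related small molecules, out of 19937 genes measured. They were taken by symbol alone: every gene named Slc1a, Slc3a, Slc6a, Slc7a, Slc38a or Slc43a plus a number that has a probe set annotated to that gene only. A probe set is the group of array probes that reads one transcript region. The 56 genes had 58 such probe sets, and for the 2 genes with a pair of them (Slc38a1 and Slc38a9) the probe set with the higher mean over the 9 arrays was used. The arrays came from sorted cells of wild-type C57BL/6 mice: 3 of microglia sorted as Ly6C-high, 3 of microglia sorted as Ly6C-low (called Ly6C-high and Ly6C-low cells below) and 3 of spleen monocytes. The labels name the Ly6C-high cells MgSCs and the Ly6C-low cells bulk microglia. Brain cells had been freed by enzyme digestion and enriched on Percoll before staining for leukocyte and macrophage surface markers, Ly6C among them, and the sort. Whether replicates come from separate animals is not said in the labels, so the p-values reflect only how far these arrays spread, which may be technical.

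Amino acid carriers exchange or accumulate amino acids across the plasma membrane and the lysosomal membrane. The Slc7 light chains that exchange amino acids work only when bound to a heavy chain of the Slc3 family, whereas the Slc1, Slc6 and Slc38 carriers mostly draw on the sodium gradient. In the brain, capillary endothelium is known for the large neutral amino acid exchanger and the arginine carrier, astrocytes for glutamate uptake, neurons for reuptake of GABA and monoamines, and macrophages for the cystine and glutamate exchanger.

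Of the 56 transporters, 22 passed an adjusted p of 0.05 in at least 1 of the 3 comparisons and 34 passed in none. These 22 were 39.3% of the transporters, while 30.5% of all genes were called in at least 1 comparison. Ly6C-high cells were above both other groups in carriers for glutamate, glutamine, cationic and large neutral amino acids and taurine (Slc38a3, Slc1a1, Slc7a1, Slc38a5, Slc7a3, Slc7a5, Slc6a6) and below both in the exchanger chains Slc7a6 and Slc7a7 and the glutamine carrier Slc38a1. Ly6C-low cells were above both other groups in the exchanger chain Slc7a8 and the glutamate carrier Slc1a3, and below monocytes, as were Ly6C-high cells, in the cystine exchanger chain Slc7a11. Values below are log2 intensities. A mean carries its SD with n = 3 arrays per group, and a log2 fold change its standard error (SE). Adjusted p-values come from limma with Benjamini-Hochberg adjustment over all 19937 genes. The small number of arrays limits the precision. The platform has no detection calls, so 1027 olfactory receptor genes served to describe the dim range, whose limit was set at their 95th percentile of group means (5.94 in Ly6C-high cells, 5.69 in Ly6C-low cells and 5.49 in monocytes). Where the lower group of a called transporter lay under its limit, the fold was taken against the limit and is given as at least that much, beside the log2 fold change of the fit.

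**Figure D1:**
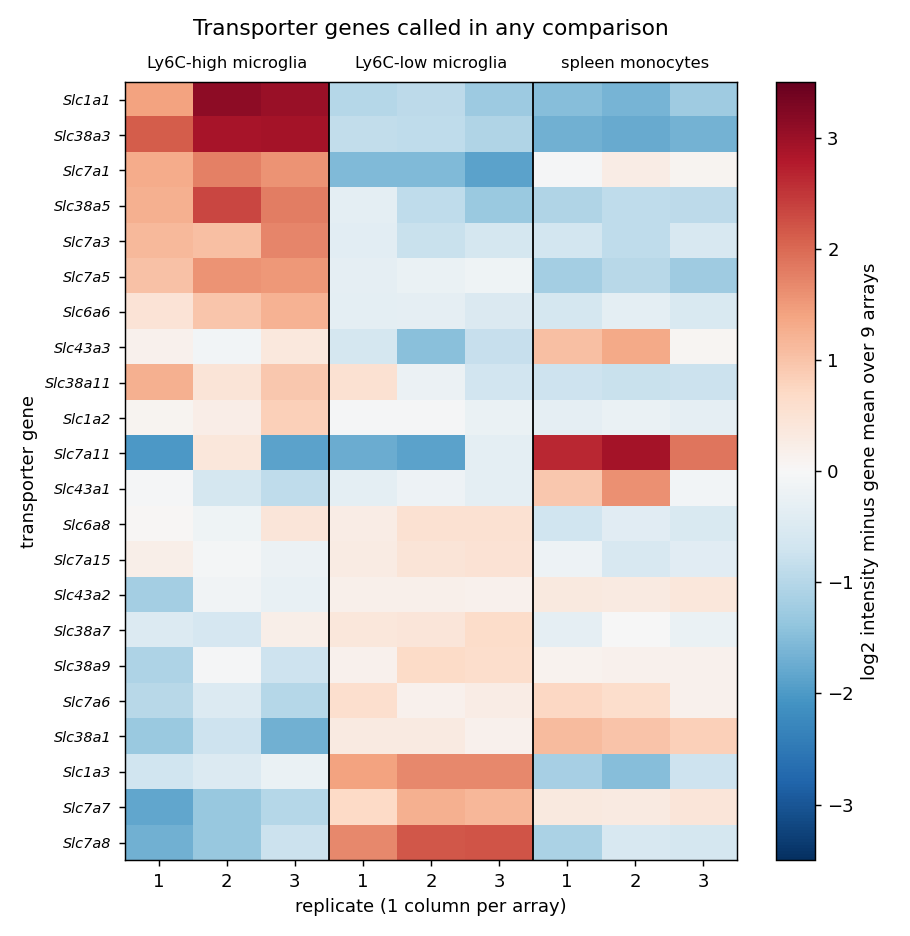
Each cell is a log2 intensity minus that gene's mean over the 9 arrays, for the 22 transporters called in any comparison (rows) on the 9 arrays (columns, 3 per group). Slc1a1 and Slc38a3 stand out in the 3 Ly6C-high columns, Slc7a8 and Slc1a3 in the 3 Ly6C-low columns and Slc7a11 in the 3 monocyte columns.

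The arrays were checked against marker genes of the labelled cells. The mean of 9 homeostatic microglia genes was 7.93 to 8.79 in Ly6C-high cells, 10.89 to 11.40 in Ly6C-low cells and 6.75 to 6.87 in monocytes. The mean of 10 brain endothelium genes was 10.62 to 11.20 in Ly6C-high cells, 6.10 to 7.70 in Ly6C-low cells and 6.03 to 6.16 in monocytes. Between the brain sorts all 9 microglia genes were lower and all 10 endothelium genes higher in Ly6C-high cells. High endothelium genes beside lowered microglia genes go against a label of microglia alone, so these cells are called here by their sort name. Endothelium means in Ly6C-low replicates 1, 2 and 3 were 7.70, 6.96 and 6.10. Ly6C-high replicate 2 had a classical monocyte mean of 9.63, against 7.64 and 6.56 in the other replicates of its group. Ly6C-low replicate 3 had a neutrophil mean of 10.03, against 7.35 and 7.74. The spleen monocyte arrays also carried neutrophil genes (10.37 to 10.86) and B cell genes (8.45 to 9.30). T and NK cell genes (7.07 to 7.34) and erythroid genes (6.44 to 7.98) were there too. On each of these lists every monocyte array lay above every brain array. Bulk RNA does not separate fewer cells of a type from less RNA per cell, which touches every result below.

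**Figure D2:**
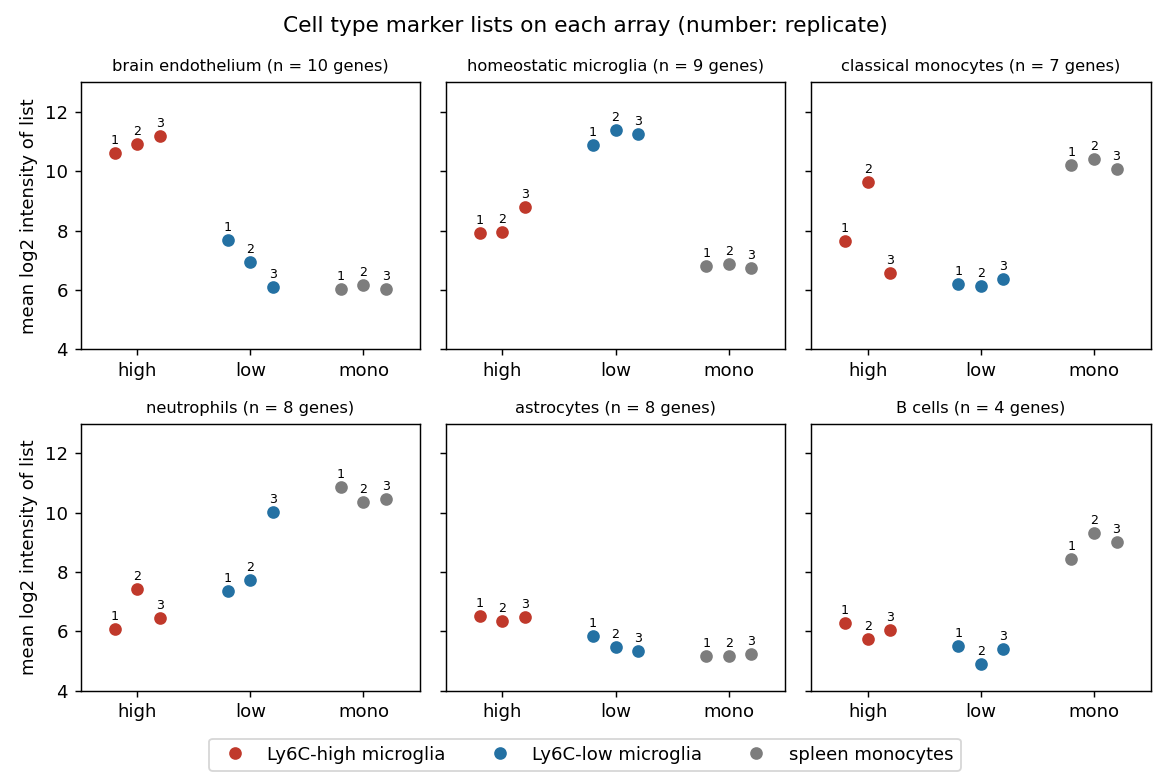
Mean log2 intensity (y axis) of 6 marker lists on each array, with the replicate number beside each point and the groups side by side on the x axis. Endothelium genes lie at 10.62 to 11.20 on the Ly6C-high arrays and at 7.70 or below on the others, and Ly6C-high replicate 2 and Ly6C-low replicate 3 stand apart in the monocyte and neutrophil lists.

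Setting Ly6C-high against Ly6C-low cells shows where the sorted subset and bulk microglia differ in transporter RNA. Of the 56 transporters, 7 were higher (12.5%) and 7 lower (12.5%) in Ly6C-high cells, against 4.49% and 11% of all genes. The share of lower calls was near that of all genes, and the share of higher calls was above it. The median log2 fold change was 0.08 for the transporters and 0.05 for all genes. For none of the 14 called transporters did an array of one group reach the range of the other, and the same held for 99.6% of all called genes. The 42 transporters not called had log2 fold changes of -0.77 to 1.10, 1 of them at least 2-fold, and a median half-width of the 95% interval of 0.36. With Ly6C-high replicate 2 and also Ly6C-low replicate 3 left out, an alternative chosen after the marker values were seen, 13 transporters passed and all 13 were among the 14.

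**Figure D3:**
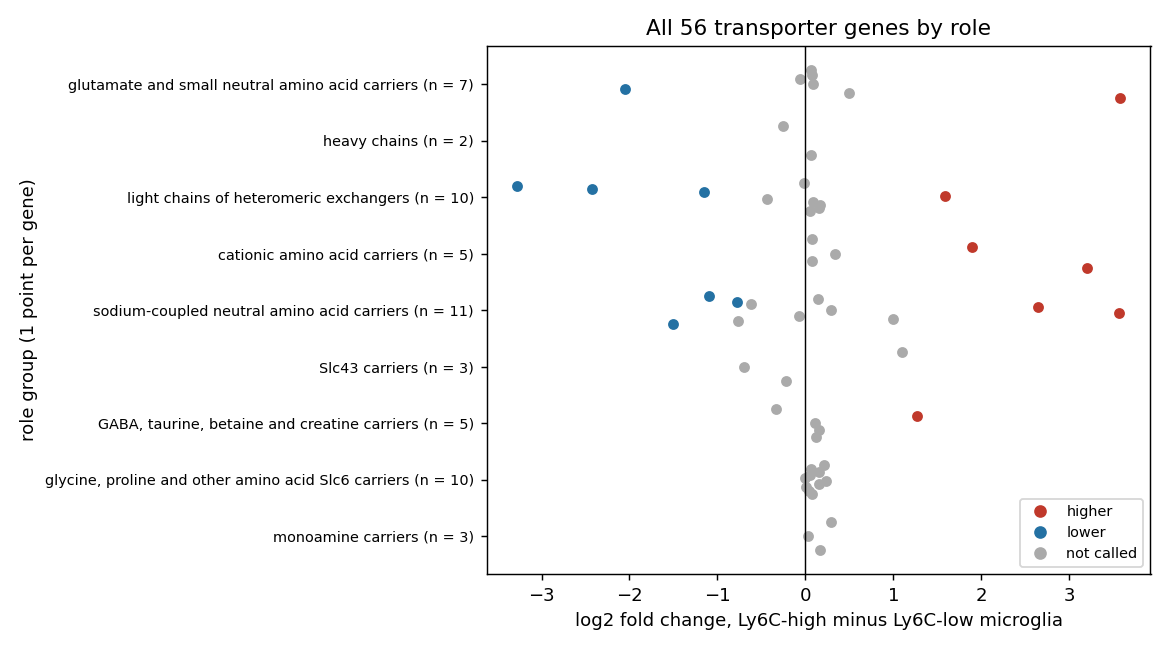
Log2 fold change of Ly6C-high over Ly6C-low cells (x axis) for all 56 transporters, 1 point per gene, arranged by role (y axis), with genes past the adjusted p threshold in colour. Calls run in both directions among exchanger light chains and Slc38 carriers, while 17 of the 18 Slc6 carriers were not called.

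RefSeq promoters (build GRCm38.p6, 250 bases before to 50 after a start) were matched by symbol for 40 of the 56 transporters, with 61 starts among them. Those of Slc1a1 and Slc38a5, higher in Ly6C-high cells, and of Slc7a8 and Slc1a3, lower there, are shown as examples of each direction. Size of change alone did not pick them. Slc7a1 (log2 fold change 3.20) moved farther than Slc38a5 (2.64), and Slc7a7 (-2.43) farther than Slc1a3 (-2.05). Each printed sequence reads 5′ to 3′ on the gene's strand, and capitals mark an E-box, the letters CACGTG. They lie at chr19:28834885-28835184 (plus strand, Slc1a1), chrX:8271131-8271430 (plus strand, Slc38a5), chr14:54781837-54782136 (minus strand, Slc7a8) and chr15:8710758-8711057 (minus strand, Slc1a3).
Slc1a1: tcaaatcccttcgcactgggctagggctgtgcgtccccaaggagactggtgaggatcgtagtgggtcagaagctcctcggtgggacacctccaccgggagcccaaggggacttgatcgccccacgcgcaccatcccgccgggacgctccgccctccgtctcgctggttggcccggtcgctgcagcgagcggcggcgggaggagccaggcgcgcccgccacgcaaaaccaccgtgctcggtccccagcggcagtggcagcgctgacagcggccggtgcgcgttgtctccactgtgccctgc
Slc38a5: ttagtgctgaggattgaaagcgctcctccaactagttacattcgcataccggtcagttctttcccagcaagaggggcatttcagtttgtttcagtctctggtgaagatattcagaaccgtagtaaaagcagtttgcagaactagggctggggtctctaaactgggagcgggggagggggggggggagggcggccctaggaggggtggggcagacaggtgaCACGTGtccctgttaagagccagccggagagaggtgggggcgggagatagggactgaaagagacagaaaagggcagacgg
Slc7a8: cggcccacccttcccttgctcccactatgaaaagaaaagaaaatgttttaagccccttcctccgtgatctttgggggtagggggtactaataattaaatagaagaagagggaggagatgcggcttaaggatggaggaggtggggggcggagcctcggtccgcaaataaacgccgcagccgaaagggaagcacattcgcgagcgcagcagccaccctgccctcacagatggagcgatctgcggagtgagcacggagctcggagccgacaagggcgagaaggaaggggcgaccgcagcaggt
Slc1a3: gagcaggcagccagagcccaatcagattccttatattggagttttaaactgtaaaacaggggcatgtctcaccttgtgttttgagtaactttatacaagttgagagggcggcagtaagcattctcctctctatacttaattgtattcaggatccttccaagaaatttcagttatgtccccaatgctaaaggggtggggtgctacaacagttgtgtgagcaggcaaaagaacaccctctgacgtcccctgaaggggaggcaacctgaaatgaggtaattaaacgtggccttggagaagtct

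These 4 promoters held 32, 10, 20 and 3 CG dinucleotides in the order printed, with GC contents of 70.3%, 56%, 58.0% and 45.3%. The E-box of Slc38a5 began at position -30, counted from the annotated start. Over both strands, CACGTG was in 8 of 61 transporter promoters (13.1%) and in 7.15% of 32851 mouse promoters of this length. Of the 8 transporters that held it, Slc38a5, Slc38a7 and Slc43a1 were called in a comparison and the other 5 in none. The letters TGATGNAAT, a form of the amino acid response element, were in 1 of 61 (Slc6a21, 1.64%) against 0.965% of all promoters. This search fixed the last base as T, so forms that end in another base were not counted. The Slc7a11 promoter holds TGATGCAAA, which is such a form. GAGGAAGT, a PU.1 site, was in 1 of 61 (Slc43a1) against 3.20%, and ACCGGAAGT, an ETS site, in 0 of 61 against 1.10%. GAGGAAGT and ACCGGAAGT share the ETS core, so the searches are not independent. A match is a description of the letters, not a binding site.

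Of the 7 Slc1 carriers, Slc1a1 rose and Slc1a3 fell in Ly6C-high against Ly6C-low cells. Slc1a1 encodes EAAT3, which takes up glutamate, aspartate and cysteine. It stood at 7.69, 9.42 and 9.29 in Ly6C-high cells, at 5.28, 5.36 and 5.01 in Ly6C-low cells and at 4.78, 4.64 and 5.03 in monocytes. Every Ly6C-high array lay above the other 6, with replicate 1 the lowest of its group. It was at least 8.62-fold higher in Ly6C-high than Ly6C-low cells (log2 fold change 3.58 ± 0.41, adjusted p = 6.31e-04) and at least 9.90-fold higher than in monocytes (3.98 ± 0.41, adjusted p = 3.10e-04). Ly6C-low cells and monocytes did not pass the test (0.40 ± 0.41, 95% interval -0.53 to 1.33).

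Slc1a3, the glutamate carrier GLAST known from astrocytes, had the opposite order in the brain sorts. It stood at 6.02, 6.24 and 6.50 in Ly6C-high cells, at 8.12, 8.41 and 8.40 in Ly6C-low cells and at 5.56, 5.23 and 6.00 in monocytes. The Ly6C-low arrays lay above all others. It was 4.15-fold lower in Ly6C-high than Ly6C-low cells (-2.05 ± 0.21, adjusted p = 3.55e-04), and 6.55-fold higher in Ly6C-low cells than in monocytes (2.71 ± 0.21, adjusted p = 7.25e-05). Ly6C-high cells against monocytes missed the threshold (0.66 ± 0.21, adjusted p = 0.0554), and passed without monocyte replicate 3 (0.86, adjusted p = 0.0235). The mean of 8 astrocyte genes was 6.34 to 6.53 in Ly6C-high cells, 5.33 to 5.83 in Ly6C-low cells and 5.16 to 5.24 in monocytes. Of the 8, Gja1 (8.64 against 6.32, adjusted p = 0.0011) and Slco1c1, which is on the endothelium list too (11.19 against 6.39, adjusted p = 1.22e-04), were called higher in Ly6C-high against Ly6C-low cells and none was lower. Aqp4 and Gfap had means of 4.42 and 5.01 in Ly6C-high cells, 4.57 and 5.04 in Ly6C-low cells and 4.07 and 4.94 in monocytes. These were under the dim limits, as were the means of Aldh1l1 and Slc4a4. Fgfr3 lay above the limits, at 6.59, 6.30 and 6.24 in Ly6C-high cells, Ly6C-low cells and monocytes. Aldoc lay above them in Ly6C-low cells (5.87) and monocytes (5.70) and under in Ly6C-high cells (5.83). The part of astrocytes in the Slc1a3 values was not tested.

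Slc1a2, the main astrocyte glutamate carrier GLT-1, averaged 6.41 ± 0.40 in Ly6C-high cells and 5.72 ± 0.05 in monocytes, a small difference past the threshold (0.69 ± 0.18, adjusted p = 0.0305). Its call ended without Ly6C-low replicate 2 or any 1 monocyte array (0.67 to 0.71, adjusted p from 0.0508 to 0.0949). Slc1a5, the glutamine carrier ASCT2, stood at 6.71, 8.35 and 6.68 in Ly6C-high cells, at 6.84, 7.49 and 7.57 in Ly6C-low cells and at 8.74, 8.82 and 8.23 in monocytes. Ly6C-high replicate 2, the array with the highest monocyte markers of its group, fell within the monocyte range. Slc1a5 did not pass in any comparison (adjusted p = 0.943, 0.0599 and 0.0936). Without Ly6C-high replicate 2 it was lower than in monocytes in Ly6C-high cells (-1.91, adjusted p = 0.00157) and in Ly6C-low cells (-1.30, adjusted p = 0.00718). With estimated array weights both passed too (-1.52, adjusted p = 0.0202, and -1.19, adjusted p = 0.00775). With only the 6 arrays compared, Ly6C-low cells passed against monocytes (-1.30, adjusted p = 0.0123). The remaining 3, Slc1a4, Slc1a6 and Slc1a7, had group means from 4.74 to 5.36 and no call.

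Among the cationic amino acid carriers, Slc7a1 and Slc7a3 rose in Ly6C-high cells and the other 3 did not pass. Slc7a1 encodes CAT1, the widespread carrier of arginine, lysine and ornithine. Its values were 9.73, 10.20 and 9.99 in Ly6C-high cells, 6.89, 6.87 and 6.56 in Ly6C-low cells and 8.40, 8.69 and 8.52 in monocytes. The 3 groups did not overlap, and Ly6C-low cells were lowest. Slc7a1 was 9.20-fold higher in Ly6C-high than Ly6C-low cells (3.20 ± 0.16, adjusted p = 1.48e-05) and 2.71-fold higher than in monocytes (1.44 ± 0.16, adjusted p = 4.37e-04). It was 3.39-fold lower in Ly6C-low cells than in monocytes (-1.76 ± 0.16, adjusted p = 1.50e-04).

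Slc7a3 encodes the related carrier CAT3. It stood at 6.58, 6.50 and 7.16 in Ly6C-high cells, 5.07, 4.66 and 4.83 in Ly6C-low cells and 4.80, 4.55 and 4.88 in monocytes. All Ly6C-high arrays lay above the other 6, which overlapped each other. The fold was at least 2.08 over Ly6C-low cells (1.89 ± 0.20, adjusted p = 3.97e-04) and at least 2.38 over monocytes (2.0 ± 0.20, adjusted p = 2.54e-04). Slc7a2, Slc7a4 and Slc7a14 had group means of 4.48 to 5.86 and no call.

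The exchangers built from a heavy and a light chain changed in their light chains. The shared heavy chain Slc3a2, known as 4F2hc or CD98, was at 9.11, 10.28 and 10.41 in Ly6C-high cells, 10.08, 10.34 and 10.14 in Ly6C-low cells and 10.08, 9.93 and 10.24 in monocytes. The groups overlapped. No comparison passed: the log2 fold change of Ly6C-high over Ly6C-low cells was -0.25 ± 0.31 (95% interval -0.95 to 0.45), with the sign turned under quantile normalization (0.11). Slc3a1, the other heavy chain, had means of 5.60, 5.54 and 5.39 in Ly6C-high cells, Ly6C-low cells and monocytes and no call.

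Slc7a5 encodes LAT1, the light chain for leucine and other large neutral amino acids. It was measured at 10.75, 11.29 and 11.26 in Ly6C-high cells, 9.43, 9.50 and 9.58 in Ly6C-low cells and 8.53, 8.75 and 8.49 in monocytes. The 3 groups formed separate steps. Slc7a5 was 3.02-fold higher in Ly6C-high than Ly6C-low cells (1.59 ± 0.16, adjusted p = 3.31e-04) and 5.69-fold higher than in monocytes (2.51 ± 0.16, adjusted p = 2.78e-05). Ly6C-low cells were 1.89-fold above monocytes (0.92 ± 0.16, adjusted p = 0.0055).

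Slc7a8, the light chain LAT2 of overlapping substrates, ran the other way. It stood at 6.30, 6.64 and 7.22 in Ly6C-high cells, 9.66, 10.16 and 10.18 in Ly6C-low cells and 6.86, 7.41 and 7.35 in monocytes. The Ly6C-low arrays lay apart, and the Ly6C-high and monocyte arrays overlapped. The gene was 9.73-fold lower in Ly6C-high than Ly6C-low cells (-3.28 ± 0.26, adjusted p = 1.18e-04) and 6.95-fold higher in Ly6C-low cells than in monocytes (2.80 ± 0.26, adjusted p = 2.02e-04). Against monocytes, Ly6C-high cells did not pass (-0.49 ± 0.26, 95% interval -1.09 to 0.11).

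Slc7a7 and Slc7a6 encode y+LAT1 and y+LAT2, which exchange cationic for neutral amino acids. Slc7a7, an exchanger known from macrophages, was at 6.71, 7.21 and 7.53 in Ly6C-high cells, 9.23, 9.79 and 9.70 in Ly6C-low cells and 8.88, 8.85 and 8.95 in monocytes. The Ly6C-high arrays were the lowest of the 9. It was 5.37-fold lower in Ly6C-high than Ly6C-low cells (-2.43 ± 0.22, adjusted p = 2.02e-04) and 3.36-fold lower than in monocytes (-1.75 ± 0.22, adjusted p = 9.22e-04). Ly6C-low cells against monocytes missed the threshold (0.68 ± 0.22, adjusted p = 0.0802), and passed without Ly6C-high replicate 1 (0.68, adjusted p = 0.0268) or replicate 3 (0.68, adjusted p = 0.0474). Slc7a6 averaged 6.54 ± 0.30 in Ly6C-high cells, 7.69 ± 0.22 in Ly6C-low cells and 7.86 ± 0.30 in monocytes. It was 2.22-fold lower in Ly6C-high than Ly6C-low cells (-1.15 ± 0.21, adjusted p = 0.0059) and 2.49-fold lower than in monocytes (-1.32 ± 0.21, adjusted p = 0.0028).

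Slc7a11 encodes xCT, the light chain that imports cystine for glutathione in exchange for glutamate. It was at 4.51, 6.93 and 4.65 in Ly6C-high cells, 4.78, 4.66 and 6.17 in Ly6C-low cells and 9.16, 9.45 and 8.41 in monocytes. Monocytes lay above all brain arrays, and within the brain sorts the highest values were on Ly6C-high replicate 2 and Ly6C-low replicate 3. These are the arrays with the highest monocyte and neutrophil marker means of their groups, 9.63 and 10.03, and the part of those cells in the values was not tested. Slc7a11 was at least 8.36-fold lower in Ly6C-high cells than in monocytes (-3.64 ± 0.67, adjusted p = 0.0065) and at least 9.95-fold lower in Ly6C-low cells (-3.80 ± 0.67, adjusted p = 0.0060). Without Ly6C-high replicate 2 the fitted log2 fold change of Ly6C-high cells over monocytes was -4.43. Between the brain sorts it did not pass (0.16 ± 0.67, 95% interval -1.38 to 1.70). Slc7a15 passed the test in Ly6C-low cells over monocytes (0.80 ± 0.14, adjusted p = 0.0065), at 5.16, 5.32 and 5.36 against 4.68, 4.31 and 4.46. Both groups lay under the dim limit, so no fold is given. The other 4 light chains, Slc7a9, Slc7a10, Slc7a12 and Slc7a13, had means of 3.56 to 6.01 and no call.

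**Figure D4:**
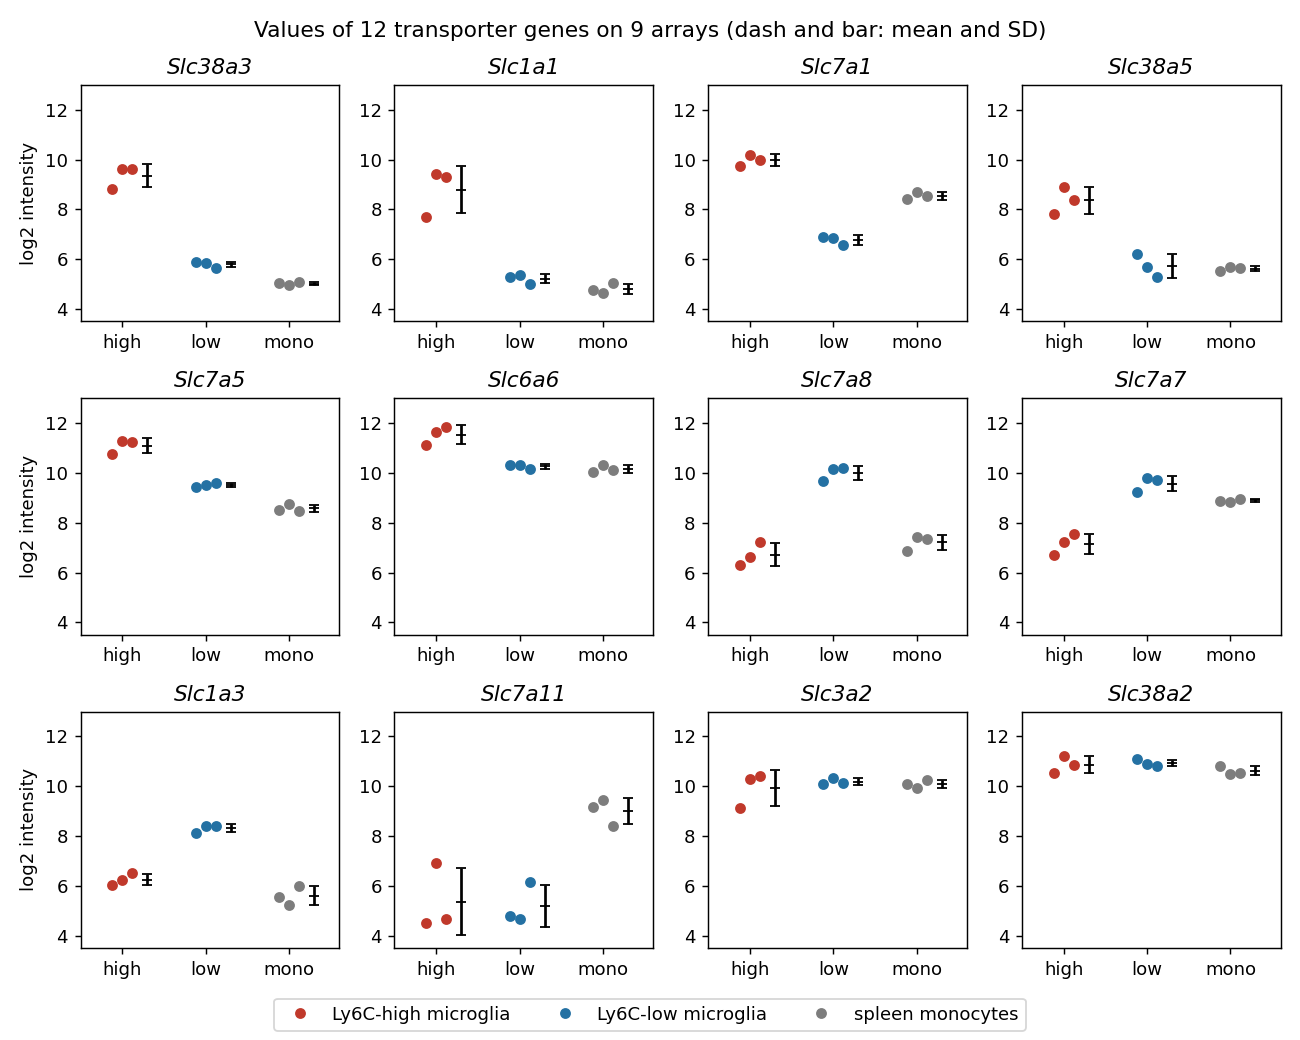
Log2 intensity (y axis, same range in every panel) of 12 transporters on each array, with the groups Ly6C-high cells, Ly6C-low cells and spleen monocytes from left to right and a dash and bar for the mean and SD of 3 arrays. Slc7a5 and Slc7a8 run in opposite directions between the brain sorts, while their heavy chain Slc3a2 overlaps in all groups.

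Among the 11 sodium-coupled Slc38 carriers, 2 rose and 3 fell in Ly6C-high against Ly6C-low cells. Slc38a3 and Slc38a5 encode SNAT3 and SNAT5, which carry glutamine, asparagine and histidine. Slc38a3 was at 8.83, 9.61 and 9.64 in Ly6C-high cells, 5.87, 5.84 and 5.66 in Ly6C-low cells and 5.03, 4.96 and 5.07 in monocytes. No groups overlapped, and the Ly6C-high arrays lay far above the rest. The gene was 11.9-fold higher in Ly6C-high than Ly6C-low cells (3.57 ± 0.21, adjusted p = 2.82e-05) and at least 14.6-fold higher than in monocytes (4.34 ± 0.21, adjusted p = 8.76e-06). The step between Ly6C-low cells and monocytes was small, at least 1.23-fold (0.77 ± 0.21, adjusted p = 0.0399). Its call ended without any 1 array of either group (0.72 to 0.83, adjusted p from 0.0773 to 0.125).

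Slc38a5 was at 7.81, 8.92 and 8.36 in Ly6C-high cells, 6.22, 5.67 and 5.27 in Ly6C-low cells and 5.53, 5.69 and 5.66 in monocytes. The Ly6C-high arrays lay above the others, which overlapped each other. The fold was 6.25 over Ly6C-low cells (2.64 ± 0.30, adjusted p = 6.68e-04) and 6.66 over monocytes (2.74 ± 0.30, adjusted p = 4.93e-04). Slc38a11 was at 6.34, 5.54 and 6.03 in Ly6C-high cells, 5.63, 4.89 and 4.42 in Ly6C-low cells and 4.36, 4.32 and 4.34 in monocytes. It was at least 1.39-fold higher in Ly6C-high cells than in monocytes (1.63 ± 0.30, adjusted p = 0.0066), and against Ly6C-low cells it missed the threshold (0.99 ± 0.30, adjusted p = 0.0623).

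Slc38a1 encodes SNAT1, a carrier of glutamine and other small neutral amino acids. It was at 7.39, 7.96 and 7.01 in Ly6C-high cells, 9.0, 9.02 and 8.85 in Ly6C-low cells and 9.81, 9.68 and 9.54 in monocytes. The groups did not overlap, and Ly6C-high cells were lowest. It was 2.83-fold lower in Ly6C-high than Ly6C-low cells (-1.5 ± 0.22, adjusted p = 0.0021) and 4.66-fold lower than in monocytes (-2.22 ± 0.22, adjusted p = 2.45e-04). The second probe set of Slc38a1 gave differences of -1.49 and -1.65 on the log2 scale in these comparisons, and there the groups overlapped, at 5.46, 7.09 and 4.95 in Ly6C-high cells, 6.72, 7.06 and 8.18 in Ly6C-low cells and 7.40, 7.95 and 7.09 in monocytes.

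Slc38a2, which encodes SNAT2 and is known to be induced by amino acid shortage, was at 10.53, 11.20 and 10.86 in Ly6C-high cells, 11.09, 10.88 and 10.83 in Ly6C-low cells and 10.83, 10.49 and 10.53 in monocytes. The groups overlapped and no comparison passed (-0.07 ± 0.18, 0.25 ± 0.18 and 0.32 ± 0.18 for Ly6C-high over Ly6C-low cells, Ly6C-high cells over monocytes and Ly6C-low cells over monocytes). Under quantile normalization the second of these was 0.68 and passed (adjusted p = 0.0286). The lysosomal carriers Slc38a9, which takes part in arginine sensing, and Slc38a7, which exports glutamine, had smaller differences. Slc38a9 averaged 7.16 ± 0.54 in Ly6C-high and 8.26 ± 0.29 in Ly6C-low cells (-1.10 ± 0.26, adjusted p = 0.0207), and its other probe set differed by -0.81. Its call ended without Ly6C-high replicate 3 or Ly6C-low replicate 2 or 3 (-1.04 to -1.01, adjusted p from 0.0548 to 0.0828). Slc38a7 averaged 6.96 ± 0.43 in Ly6C-high and 7.74 ± 0.14 in Ly6C-low cells (-0.78 ± 0.21, adjusted p = 0.0362). That call ended without any 1 array other than Ly6C-high replicate 3 (-0.83 to -0.63, adjusted p from 0.0545 to 0.133). The other 4, Slc38a4, Slc38a6, Slc38a8 and Slc38a10, were not called.

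The 18 Slc6 carriers, which move neurotransmitters, taurine, creatine and amino acids, had 2 members called in any comparison. Of all genes, 30.5% were called in at least 1 comparison. Slc6a6, the taurine carrier TauT, stood at 11.14, 11.63 and 11.86 in Ly6C-high cells, 10.32, 10.33 and 10.15 in Ly6C-low cells and 10.04, 10.32 and 10.12 in monocytes. The Ly6C-high arrays lay above the other 6, which overlapped. It was 2.42-fold higher in Ly6C-high than Ly6C-low cells (1.27 ± 0.18, adjusted p = 0.0020) and 2.61-fold higher than in monocytes (1.39 ± 0.18, adjusted p = 0.0012). Slc6a8, the creatine carrier, was at 6.69, 6.48 and 7.05 in Ly6C-high cells, 6.89, 7.18 and 7.16 in Ly6C-low cells and 5.95, 6.23 and 6.11 in monocytes. Both brain sorts lay above monocytes and overlapped each other. Slc6a8 was 1.97-fold higher in Ly6C-low cells than in monocytes (0.98 ± 0.16, adjusted p = 0.0047) and 1.57-fold higher in Ly6C-high cells (0.65 ± 0.16, adjusted p = 0.0255). The call for Ly6C-high cells ended without Ly6C-high replicate 3 or any 1 monocyte array (0.49 to 0.71, adjusted p from 0.0514 to 0.0962).

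None of the other 16 Slc6 carriers was called. The noradrenaline, dopamine and serotonin carriers Slc6a2, Slc6a3 and Slc6a4 had group means of 5.07 to 6.09 and log2 fold changes of 0.03 to 0.29 in Ly6C-high over Ly6C-low cells. The 3 carriers of GABA or betaine among them (Slc6a11, Slc6a12 and Slc6a13) had means of 4.49 to 5.75. The remaining 10, grouped here as carriers of glycine, proline and other amino acids, ranged from 3.73 to 6.50. Their log2 fold changes between the brain sorts were at most 0.23. Substrates of members of that group such as Slc6a16 and Slc6a21 are not established, and Slc6a21 was placed there by default. By group mean, 24 of the 56 transporters lay under the dim limit in all groups, 12 of them Slc6 carriers. Probe sets differ in affinity, so this is a description and no call of absence. Of these 24, Slc7a15 alone was called, in 1 comparison.

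The 3 Slc43 carriers were lower in one or the other brain sort than in monocytes. Slc43a3, known to carry purine nucleobases, was at 6.61, 5.74 and 6.42 in Ly6C-low cells against 8.26, 8.55 and 7.28 in monocytes, 3.42-fold lower (-1.77 ± 0.34, adjusted p = 0.0091), with 7.37, 7.12 and 7.57 in Ly6C-high cells. Slc43a1 and Slc43a2, which encode the neutral amino acid carriers LAT3 and LAT4, were called lower in Ly6C-high cells than in monocytes. The fold was at least 2.33 for Slc43a1 (-1.31 ± 0.39, adjusted p = 0.0454) and 1.83 for Slc43a2 (-0.87 ± 0.25, adjusted p = 0.0379). Slc43a1 was at 6.33, 5.73 and 5.48 against 7.29, 7.95 and 6.25, so the groups overlapped, and its call ended without any 1 array other than Ly6C-high replicate 1 or monocyte replicate 3 (-1.31 to -0.92, adjusted p from 0.0664 to 0.129). That of Slc43a2 ended without any 1 Ly6C-low or monocyte array (-0.89 to -0.84, adjusted p from 0.0565 to 0.102).

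Spleen monocytes are the peripheral myeloid cells set against the Ly6C-high subset. Of the 56 transporters, 10 were higher (17.9%) and 6 lower (10.7%) in Ly6C-high cells, against 6.88% and 14.6% of all genes. Arrays did not overlap for 15 of the 16, all but Slc43a1, nor for 99.6% of all called genes. The median log2 fold change was 0.20, and 0.09 for all genes. The 10 higher ones were Slc38a3, Slc1a1, Slc38a5, Slc7a5, Slc7a3, Slc38a11, Slc7a1, Slc6a6, Slc1a2 and Slc6a8. Each pair of comparisons shares the arrays of 1 group. The 40 transporters not called ran from -1.35 to 0.66. The 6 lower ones were Slc7a11, Slc38a1, Slc7a7, Slc7a6, Slc43a1 and Slc43a2. Without both marker-divergent brain arrays, 20 transporters passed, 15 of them among the 16.

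The same monocyte arrays were also set against Ly6C-low cells. Of the 56 transporters, 6 were higher (10.7%) and 3 lower (5.36%) in Ly6C-low cells, against 6.80% and 7.71% of all genes, and the median log2 fold changes were 0.10 and 0.05. Slc7a8, Slc1a3, Slc6a8, Slc7a5, Slc7a15 and Slc38a3 were higher, and Slc7a11, Slc43a3 and Slc7a1 lower. No called transporter overlapped between these groups, nor did any of the 2894 called genes, and the 47 not called ran from -1.30 to 0.68. The count was 14 when only these 6 arrays were fitted and 16 with estimated array weights.

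**Figure D5:**
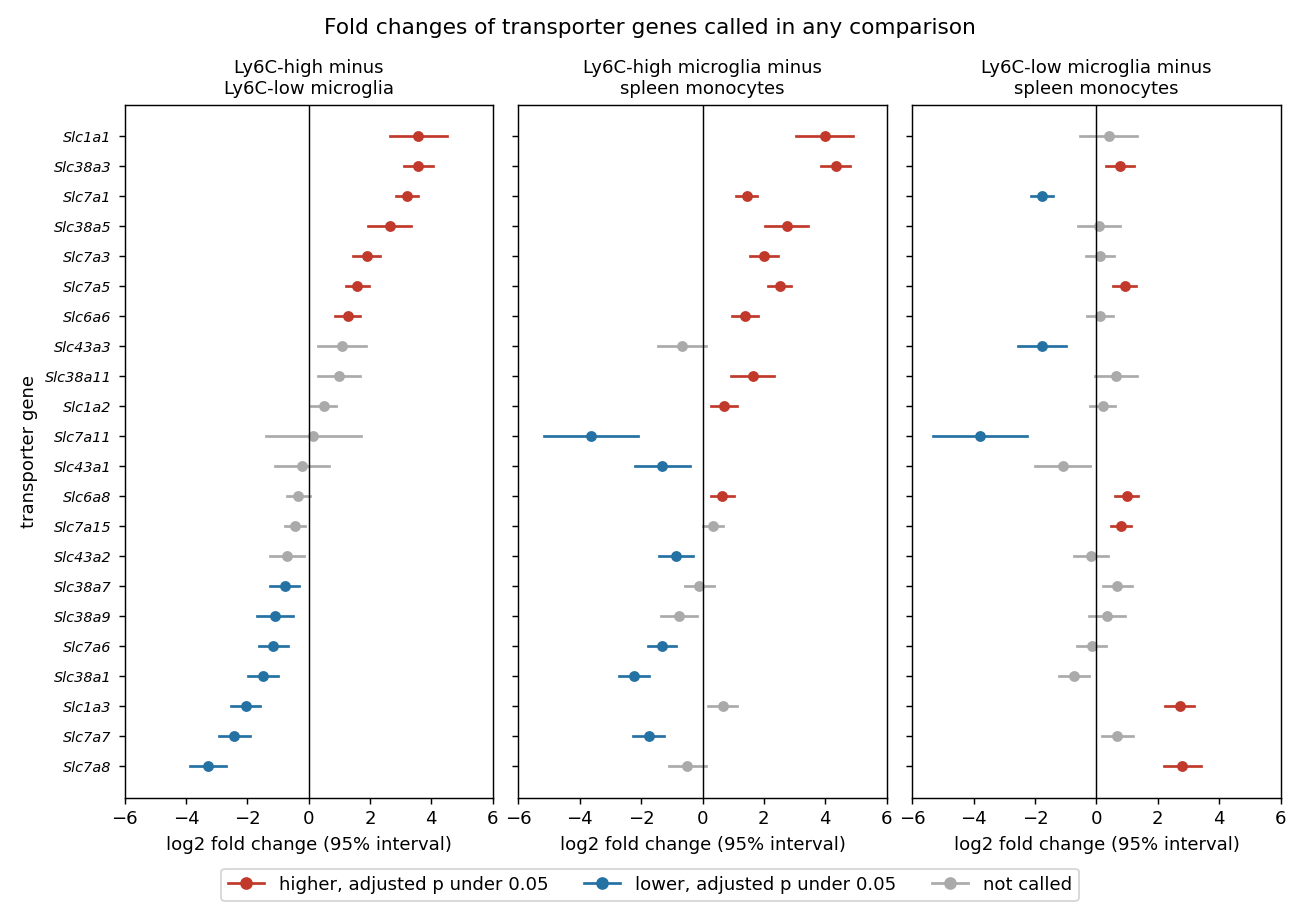
Log2 fold changes with 95% intervals (x axis) of the 22 called transporters (y axis) in the 3 comparisons, each with its own panel and coloured where the adjusted p was under 0.05. Slc7a1 is higher in Ly6C-high cells in the left and middle panels and lower in Ly6C-low cells than in monocytes in the right one, and Slc7a11 has the widest intervals.

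Ly6C-high against Ly6C-low cells gave both the 7 higher and 7 lower transporters and the marker calls set beside them here. Endothelium and microglia were the lists with every gene called. Other lists had some calls, such as 2 of 7 classical monocyte genes higher and 2 of 8 neutrophil genes lower. Each of the 10 endothelium genes was called higher, with Slco1c1, also on the astrocyte list, at 11.19 against 6.39 and Cldn5 at 11.41 against 8.22. All 9 microglia genes were lower, with Tmem119 at 8.67 against 11.94. Of the 7 lower transporters, Slc38a1 and Slc7a6 had their highest mean in monocytes, where microglia markers were lowest, and the others in Ly6C-low cells. Of the 7 higher ones, Slc7a1 was lowest in Ly6C-low cells and the others in monocytes. The part of any cell type in the transporter values was not tested.

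Other carriers and the enzymes and sensors that handle amino acids were read from 4 lists. Of 26 other amino acid, peptide and vesicular carriers, none was higher and 5 were lower (19.2%) in Ly6C-high than Ly6C-low cells (median 0.02), against 4.49% and 11% of all genes. The 5 were the peptide and histidine carriers Slc15a3 (-2.96, adjusted p = 2.23e-04) and Slc15a4 (-1.62, adjusted p = 0.0015), the lysosomal cystine exporter Ctns (-1.15, adjusted p = 0.0179), the proton-coupled amino acid carrier Slc36a1 (-0.77, adjusted p = 0.0363) and the aromatic amino acid carrier Slc16a10 (-1.31, adjusted p = 0.0015). Against monocytes, 2 were higher (7.69%) and 5 lower (19.2%) in Ly6C-high cells (median 0.14), where the shares of all genes were 6.88% and 14.6%. In Ly6C-low cells 3 were higher (11.5%) and 2 lower (7.69%, median 0.10), where those shares were 6.80% and 7.71%. Of the 3, Slc36a1 (1.72, adjusted p = 7.50e-04) and Ctns (1.32, adjusted p = 0.0098) had the largest changes.

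Of 22 genes of amino acid sensing by mTORC1, the kinase complex that couples amino acids to growth, 1 was higher (4.55%) and 4 lower (18.2%) in Ly6C-high than Ly6C-low cells (median -0.38), against 4.49% and 11% of all genes. Rptor, its scaffold subunit raptor, was lower (-2.28, adjusted p = 2.95e-05), as were folliculin, Flcn (-1.63, adjusted p = 0.0039), its partner Fnip1 (-1.59, adjusted p = 0.0012) and the leucine sensor Sesn2 (-1.10, adjusted p = 0.0357). Lamtor5, of the lysosomal anchor complex, was higher (0.66, adjusted p = 0.0346). Against monocytes, 0 were higher and 3 lower (13.6%, all genes 14.6%) in Ly6C-high cells (median -0.39), and 3 higher (13.6%, all genes 6.80%) and 1 lower (4.55%, all genes 7.71%) in Ly6C-low cells (median 0.10). Among the 3 higher ones was Rptor (1.5, adjusted p = 1.53e-04).

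Of 19 genes of the amino acid response driven by the factor ATF4, 1 was higher (5.26%) and 3 lower (15.8%) in Ly6C-high than Ly6C-low cells (median -0.15), near the 4.49% and 11% of all genes. Chac1, which degrades glutathione, was higher (0.94, adjusted p = 0.0235), and Nupr1 (-1.26, adjusted p = 0.0020), Sesn2 and Ddit3 (-0.81, adjusted p = 0.0352) were lower. Against monocytes, 2 were higher (10.5%, all genes 6.88%) and 8 lower (42.1%, all genes 14.6%) in Ly6C-high cells (median -0.19). In Ly6C-low cells 2 were higher (10.5%, all genes 6.80%) and 4 lower (21.1%, all genes 7.71%, median 0.08). Ddit3 was higher in both Ly6C-high (0.83, adjusted p = 0.0262) and Ly6C-low cells (1.63, adjusted p = 0.0012). The others higher were Chac1 in Ly6C-high cells (1.16, adjusted p = 0.0081) and Ppp1r15a in Ly6C-low cells (1.44, adjusted p = 0.0159). The asparagine synthetase Asns and the serine pathway enzyme Psat1 were lower in both, with log2 fold changes in Ly6C-high and Ly6C-low cells of -0.79 (adjusted p = 0.0279) and -1.29 (adjusted p = 0.0037) for Asns, and of -1.01 (adjusted p = 0.0148) and -1.02 (adjusted p = 0.0173) for Psat1.

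Of 19 genes of glutamate, glutathione and arginine metabolism, 1 was higher (5.26%) and 3 lower (15.8%) in Ly6C-high against Ly6C-low cells (median -0.13), again near the shares of all genes, 4.49% and 11%. Nos3, the endothelial enzyme that makes nitric oxide from arginine, was higher (1.41, adjusted p = 0.0083), and the aspartate aminotransferase Got1 was lower (-1.60, adjusted p = 0.0156). Against monocytes, 3 were higher (15.8%, all genes 6.88%) and 6 lower (31.6%, all genes 14.6%) in Ly6C-high cells (median -0.32). In Ly6C-low cells 2 were higher (10.5%, all genes 6.80%) and 5 lower (26.3%, all genes 7.71%, median -0.10). Glul, the glutamine synthetase, was higher in Ly6C-high (1.51, adjusted p = 2.69e-04) and Ly6C-low cells (1.85, adjusted p = 9.74e-05), and the arginase Arg2 lower in both (-3.28, adjusted p = 1.62e-04, and -2.92, adjusted p = 2.85e-04). Gsr, which regenerates glutathione, was lower in Ly6C-low cells (-1.55, adjusted p = 0.0082).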

How the data were processed

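RNA of sorted mouse cells was read on 9 Affymetrix arrays, 3 per group. The authors deposited log2 intensities with 1 column per array, and RMA and oligo are named without versions in the submitters' processing notes. For its settings the notes give nothing, and the genome build is not given in the sources used here. Deposited values span 2.54 to 13.81, and the medians of the arrays 5.83 to 5.96. RMA compresses differences of dim genes, and scaling unlike cell types together can shift genes that did not change.

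Of 34760 probe sets, 21640 had 1 symbol in the platform annotation, 1321 several and 11799 none, which left 19937 genes by the brightest probe set. Under R 4.3.3, lmFit and eBayes of limma 3.58.1 were run on 3 group means over all 9 arrays, unscaled and with no filter on dim genes, so all 56 transporters were tested. The tests were two-sided, at an adjusted p of 0.05 over all genes. The code was tested on simulated data.

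Members and lists were chosen with earlier results of these data known. Values in every array are given for the 10 called transporters with the largest absolute change per comparison and for 9 fixed ones. Every other called transporter has its fold change, and those not called have ranges. Array values of Slc43a1, and the genes named from the other lists, were chosen after their values were seen. The main fit did not pair the samples. Correlations of deviations between arrays with the same title number ran from -0.073 to 0.301. Between brain arrays that share a number in their descriptions they were 0.301 and 0.21, the former pair sharing its title number too. Such correlations do not decide whether arrays of the brain sorts came from the same animals, which the labels do not say. Alternatives covered scaling, probe sets, dim genes, the variance model, array weights, blocks and each array left out.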

Additional observations from a re-analysis of the deposited data

How the results depend on the processing

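No called transporter changed sign under any of the 19 alternatives run. Of the 14 transporters called in Ly6C-high against Ly6C-low cells, 12 kept their call in all of them, as did 12 of 16 in Ly6C-high cells against monocytes. In Ly6C-low cells against monocytes 8 of 9 kept their call wherever they were tested. Slc7a15, among those 8, was tested in 18 of the 19 alternatives, since leaving out dim genes removed it. The exceptions were Slc38a7 and Slc38a9 in the first comparison, Slc1a2, Slc6a8, Slc43a1 and Slc43a2 in the second and Slc38a3 in the third. Leaving out 1 array gave 12 to 17, 12 to 21 and 8 to 12 called transporters. In the third comparison the count of 9 became 14 when only the 6 arrays compared were fitted, and 16 with array weights, which ran from 0.14 for Ly6C-high replicate 1 to 2.28 for Ly6C-low replicate 2. In the main fit all groups share an estimate of the spread of each gene. The Ly6C-high arrays therefore enter the p-values of the third comparison too. The part of this in the counts was not tested. With the title number as a replicate block the counts were 15, 18 and 10, and with the description number as a random block 17, 17 and 9. Under the title block Slc1a2 (adjusted p = 0.0504) and Slc38a3 (0.0623) lost their calls, and Slc1a3 (0.0366), Slc1a5 (0.0425) and Slc7a7 (0.0436) gained one against monocytes. Slc1a3 also passed under the description block (0.0496). Only the numbers 8 and 11 of the descriptions occur in both brain sorts, with correlations of 0.301 and 0.210. Under quantile normalization the counts were 15, 14 and 11. Ly6C-high arrays agreed less (correlations of 0.909 to 0.946 across genes) than Ly6C-low (0.977 to 0.988) or monocyte arrays (0.986 to 0.992), with median gene SDs of 0.27, 0.14 and 0.11.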
